A study of Mus musculus with 10 samples.

Results

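The comparison set the anterior distal fragment (Ad) of the mouse embryo at embryonic day 5.5 against the posterior proximal fragment (Pp), across the genes carried by the MOE430B array. Its members were the 2 Ad arrays (replicates 3 and 4) and the 2 Pp arrays (replicates 3 and 4) of that array type, 4 of the 10 arrays of the series. They were chosen by the fragment and the array type that the labels give. Embryos came from matings of B6SJLF1 with the CerlP-GFP line, in which green fluorescent protein is driven by the Cerl promoter and lights up the anterior visceral endoderm (AVE). Both fragments, and the whole embryo measured on 1 further MOE430B array for normalization, were taken at that stage. Ad held the fluorescent AVE with the epiblast lying under it. Pp was a triangular piece of proximal visceral endoderm and epiblast from the diametrically opposite side, with its upper edge at the border to the extraembryonic region. Each fragment therefore mixed 2 tissues, and in such bulk samples fewer cells of a type and less RNA per cell cannot be told apart. RNA was extracted with TRIzol and linearly amplified before hybridisation. The labels do not say that replicates came from separate embryos or dissections, so a p-value covers the spread among these arrays alone, which may be technical.

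The AVE is a patch of visceral endoderm that forms at the distal tip of the egg cylinder, migrates to one side and marks it as the future anterior. It is known for secreting antagonists of Nodal and Wnt signalling, which keep the neighbouring epiblast from forming primitive streak. The posterior side is where Nodal, Wnt and Bmp signals later induce the streak. The study asked which genes have more RNA in Ad than in Pp.

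Signals are the deposited MAS5 intensities, in arbitrary units on a linear scale. A probe set is the group of short probes that reads 1 transcript or part of it, and a gene can have several. Of 13506 probe sets kept by a filter on low signal, 15 differed between Ad and Pp at an adjusted p under 0.05 in limma, which is 0.111%. In Ad, 14 were higher (0.104%) and 1 was lower (0.0074%). They comprised 12 named genes, 11 of them higher in Ad, and 3 probe sets without a gene name. Of the 11, Kcnj5 and Speer4cos lay below the filter's signal in every array outside Ad. Both were kept only through their Ad signal, so once kept they could only be higher in Ad. The fitted folds of these 15 ran from 2.94 to 23.6. In 29 probe sets (0.215%), the lowest array of one fragment lay at least 2-fold above the highest of the other, 23 of them higher and 6 lower in Ad. All 15 that passed the threshold were among these 29. Arrays of the fragments that merely did not overlap were common, at 42.8% of the probe sets, with 19.3% higher and 23.4% lower in Ad. The median difference over all kept probe sets was -0.01 on the log2 scale.

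**Figure D1:**
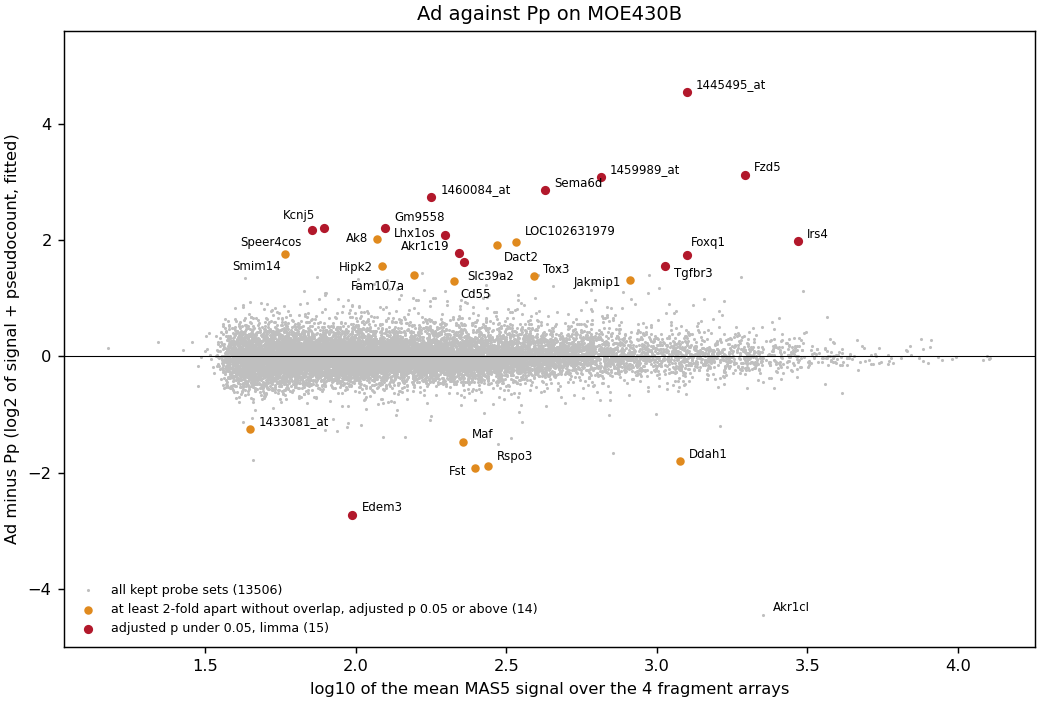
Fitted difference of Ad minus Pp (log2 of signal plus a pseudocount) against the mean MAS5 signal of the 4 fragment arrays (log10), 1 point per kept probe set of MOE430B. The 15 probe sets past the threshold are red and the 14 others that were at least 2-fold apart without overlap are orange. Of the red points 14 lie above 0 and Edem3 lies below it. Akr1cl, the lowest point, rests on 1 Pp array.

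Promoters of the called genes are shown because the genes ran from promoters dense in CpG dinucleotides to a promoter with almost none. The sequences are RefSeq's for assembly GRCm38.p6, from 250 bases before to 50 bases after the annotated start, 5′ to 3′ on the gene's strand, and capitals mark each CpG. The Fzd5 promoter lies at chr1:64737701-64738000 on the minus strand and holds 38 CpGs. That of Irs4, at chrX:141725168-141725467 on the minus strand, holds 19. The upstream one of the 2 Sema6d promoters in the table, at chr2:124089719-124090018 on the plus strand, holds 14, and the downstream one, at chr2:124653331-124653630, holds 6. The Akr1c19 promoter, at chr13:4233490-4233789 on the plus strand, holds 1. The median over all 32851 promoters of the table was 7 CpGs.
Fzd5: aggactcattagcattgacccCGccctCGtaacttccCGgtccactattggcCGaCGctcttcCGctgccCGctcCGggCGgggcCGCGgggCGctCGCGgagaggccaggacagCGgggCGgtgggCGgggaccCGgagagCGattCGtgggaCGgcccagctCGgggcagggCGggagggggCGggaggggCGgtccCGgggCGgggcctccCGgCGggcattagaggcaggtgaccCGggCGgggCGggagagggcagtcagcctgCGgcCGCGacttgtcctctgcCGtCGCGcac
Irs4: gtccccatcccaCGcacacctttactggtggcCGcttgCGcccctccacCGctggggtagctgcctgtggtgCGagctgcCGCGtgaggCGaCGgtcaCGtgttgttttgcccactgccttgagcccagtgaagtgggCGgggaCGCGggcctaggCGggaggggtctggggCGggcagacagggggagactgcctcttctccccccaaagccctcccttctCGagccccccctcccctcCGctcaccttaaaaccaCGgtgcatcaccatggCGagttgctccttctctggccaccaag
Sema6d: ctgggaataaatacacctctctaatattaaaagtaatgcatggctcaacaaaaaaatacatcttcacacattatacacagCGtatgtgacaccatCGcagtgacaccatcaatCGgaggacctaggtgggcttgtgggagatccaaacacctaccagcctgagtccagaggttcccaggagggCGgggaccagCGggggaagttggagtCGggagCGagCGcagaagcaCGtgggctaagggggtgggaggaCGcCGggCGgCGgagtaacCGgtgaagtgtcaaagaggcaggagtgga
Akr1c19: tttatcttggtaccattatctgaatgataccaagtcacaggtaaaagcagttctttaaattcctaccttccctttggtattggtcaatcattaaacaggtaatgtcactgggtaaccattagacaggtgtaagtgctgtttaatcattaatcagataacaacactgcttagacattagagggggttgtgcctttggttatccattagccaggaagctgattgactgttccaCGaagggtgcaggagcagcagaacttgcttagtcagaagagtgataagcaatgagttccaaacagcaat

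Promoters of 18 of the called or 2-fold-apart genes were matched in the table. They were searched on both strands for TAATCC, the site of the head factor Otx2, for TGTTTAC, a site of the endoderm factor Foxa2, and for CTTTGAA or CTTTGAT, sites of the Wnt effectors Tcf and Lef. TAATCC occurred in 1 of the 16 genes higher in Ad (6.25%), against 8.14% of all 27025 genes of the table. Among the 5508 of them measured on MOE430B, from which the 16 came, the share was 7.35%. That gene was Slc39a2 (chr14:51893360-51893659, plus strand), where the match reads GGATTA on the printed strand and begins 119 bases before the start, in capitals here.
Slc39a2: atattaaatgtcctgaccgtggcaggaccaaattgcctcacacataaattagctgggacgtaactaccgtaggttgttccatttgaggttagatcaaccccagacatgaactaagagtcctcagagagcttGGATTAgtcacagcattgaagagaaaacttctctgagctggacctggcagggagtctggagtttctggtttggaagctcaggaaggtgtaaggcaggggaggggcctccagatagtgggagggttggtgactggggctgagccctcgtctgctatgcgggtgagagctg
TGTTTAC occurred in 1 of the 16 genes as well, in 1 of the 5 promoters listed for Smim14, against 4.05% of all genes and 3.20% of those measured. Neither CTTTGAA nor CTTTGAT occurred in the 16. Their shares were 5.93% and 4.29% over all genes, and 4.79% and 3.16% over those measured. The 2 matched genes lower in Ad, Edem3 and Ddah1, held none of the 4 motifs. A match is a string of letters in this window and was not tested as a binding site.

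Fzd5, Sema6d and Irs4 marked the Ad fragment on this array. They had been picked as its markers with results of these data known, so their direction is no independent support for the label. Fzd5, a Frizzled receptor for Wnt ligands, had a signal of 3889 and 3184 in the Ad arrays, 419 and 331 in the Pp arrays and 648 in the whole embryo. Both Ad arrays lay far above both Pp arrays, and the whole embryo lay nearer Pp. The fitted difference was 3.13 on the log2 scale (SE 0.19, n = 2 against 2), which is 8.74-fold, with adjusted p = 0.00482 in limma. It was the largest difference upward of any named gene.

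Sema6d, a transmembrane semaphorin that signals through plexin receptors, read 839 and 686 in Ad, 101 and 79.5 in Pp and 534 in the whole embryo. The groups did not overlap and the difference was 2.86 (SE 0.19), with adjusted p = 0.00531 in limma. The whole embryo came close to the Ad level here. This was 1 of 3 kept Sema6d probe sets, and the others did not follow it. One read 214 and 177 in Ad against 277 and 274 in Pp, a difference of -0.55 (adjusted p = 0.410), and the other differed by -0.17 (adjusted p = 0.696). Irs4, an X-linked docking protein that carries the signal of insulin and growth factor receptors, was the brightest named gene past the threshold. Its signal was 4904 and 4589 in Ad, 1248 and 1022 in Pp and 1527 in the whole embryo, a difference of 1.98 (SE 0.17) with adjusted p = 0.0147. Fzd5, Sema6d and Irs4 no longer passed when no filter was applied.

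Other AVE antagonists and receptors on the array did not pass the test or were not tested. Sfrp1, a secreted Wnt-binding protein, read 4859 and 3694 in Ad and 1820 and 1834 in Pp (difference 1.13, adjusted p = 0.144). Dkk1, a secreted inhibitor of the Wnt co-receptors, read 631 and 273 in Ad and 98.2 and 198 in Pp. The 2 Ad arrays of Dkk1 differed from each other more than the lower one differed from Pp, and its difference of 1.42 had an adjusted p of 0.423. Sfrp5 read 1009 and 872 in Ad, 589 and 582 in Pp and 1588 in the whole embryo (difference 0.59, adjusted p = 0.372). Fzd8, another Frizzled receptor, was removed by the filter on low signal and so was not tested. Its single MOE430B probe set read 160 and 114 in Ad, 9.16 and 2.43 in Pp and 21.9 in the whole embryo. Of the 17 genes of the AVE list, 7 were on this array and 6 were measured. All 6 had no overlap between fragments and a positive difference, as had 1392 of all 6921 measured genes. The median of the 6 was 1.70 against -0.01 over all measured genes. Of the 6, 3 passed the test, against 12 of the 6921. Those 3 were Fzd5, Sema6d and Irs4, the markers picked with results of these data known, so neither the count nor the median is independent of that choice. The median of the other 3, Dkk1, Sfrp1 and Sfrp5, was that of Sfrp1, 1.13.

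Most of the classical AVE genes sit on MOE430A, whose separately processed values are set beside these without a test. Cer1, the source of the reporter's promoter, read 3681 and 3670 in the Ad arrays and 283 and 288 in the Pp arrays of MOE430A in 1 of its 2 probe sets, and 1532 and 1413 against 899 and 861 in the other. Lefty1, an inhibitor of Nodal, read 6489 and 4658 against 912 and 987. Both were singled out after their values were seen. Hesx1 differed on MOE430A by 1.48, Shisa2 by 1.23 and 1.54, Foxa2 by 1.12 and Hhex by 1.06, likewise picked by value. Some members of the list did not differ so. Sfrp5 differed there by 0.02, Sema6d by -0.09, and Irs4 was too dim to be kept, at 447 and 414 in Ad against 403 and 423 in Pp. Of 24 posterior and primitive streak markers 3 were on MOE430B and 2 were measured, Rspo3, given with the Wnt genes, and Lef1. Lef1, a transcriptional effector of Wnt signalling, read 311 and 369 in Ad and 242 and 222 in Pp (difference 0.45, adjusted p = 0.432), so this array offers little to check the label of Pp.

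In each signalling list at most 1 measured gene passed the test, against 12 of all 6921 measured genes. Tgfbr3, also called betaglycan, a co-receptor for Tgf-beta family ligands, read 1751 and 1477 in Ad against 511 and 513 in Pp. It was higher in Ad by 1.56 (SE 0.15), or 2.94-fold, with adjusted p = 0.0348 in limma. The adjusted p was 0.0557 with quantile normalization, 0.0704 with no pseudocount and 0.230 with no filter. The whole embryo read 1664, as bright as Ad. Tgfbr3 was the 1 gene of 17 measured in the Nodal, Bmp and Tgf-beta list that passed, and that list's median difference was 0.04, with 9 genes positive and 8 negative.

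Follistatin (Fst), a secreted antagonist of activin, went the other way. Its signal was 87.6 and 116 in Ad and 464 and 328 in Pp, which is over 2-fold apart in every pairing, but the difference of -1.92 missed the threshold (adjusted p = 0.0562). The whole embryo read 1675, above all fragments. The whole-embryo array also had high signals in the brightest probe sets of Esr1, Pgr and Hand2, the 3 measured genes of the list for maternal blood and decidua. Esr1 read 1999 there against at most 84.4 in a fragment, Pgr 991 against at most 101, and Hand2 2223 against at most 144. The other kept MOE430B probe set of each read 70.7 against at most 40.6, 72.5 against at most 69.9, and 183 against at most 150. On MOE430A the whole embryo read 816 for Esr1 and 592 for Pgr, within the range of the fragments. The summed signal of that list was 208 and 304 in Ad, 325 and 250 in Pp and 5212 in the whole embryo. Its part in the whole-embryo levels was not tested. The feedback inhibitor Smad7 read 349 and 395 in Ad and 623 and 621 in Pp (difference -0.80, adjusted p = 0.216).

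Among 19 measured Wnt receptors, ligands and R-spondins, 1 passed the test, Fzd5, and the median was -0.04 with 9 positive and 10 negative. Rspo3, a secreted enhancer of Wnt signalling, was over 2-fold lower in Ad without overlap. It read 138 and 95.3 in Ad, 494 and 370 in Pp and 199 in the whole embryo (difference -1.88, adjusted p = 0.0668). A second, dimmer Rspo3 probe set differed by 0.04 (adjusted p = 0.944). Among 8 Wnt antagonists and feedback genes 0 passed and the median was 0.01. Among 13 intracellular and planar polarity genes 0 passed either and the median was -0.04. The largest difference of that group was that of Prickle2, a planar polarity protein, with 340 and 281 in Ad and 170 and 129 in Pp (0.94, adjusted p = 0.314). Dact2, an intracellular modulator of Nodal and Wnt signalling outside these lists, was over 2-fold apart. It read 579 and 378 in Ad against 102 and 117 in Pp (1.93, adjusted p = 0.0562), while its second kept probe set differed by -0.07.

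In the insulin and Igf list 18 genes were measured and 1 passed, Irs4. The next largest values upward were those of 2 subunits of phosphoinositide 3-kinase. Pik3cb read 359 and 372 in Ad and 183 and 261 in Pp (0.64, adjusted p = 0.410), and Pik3r3 read 336 and 296 against 187 and 193 (0.62, adjusted p = 0.359). The list's median was 0.05. In the Fgf list 0 of 19 passed and the median was -0.02. Its largest value was that of Flrt3, a membrane protein that binds Fgf receptors, with 1466 and 1386 in Ad and 742 and 470 in Pp (1.18, adjusted p = 0.287). Fgf5, a ligand made by the epiblast, read 4521 and 4667 against 2992 and 2470 (0.68, adjusted p = 0.363). On MOE430A the Fgf5 probe set differed by 0.04. Of 28 measured semaphorins, ephrins and guidance receptors 1 passed, Sema6d, and the median was 0.02. The semaphorin receptor Plxna2 read 222 and 149 in Ad and 61.2 and 82.9 in Pp (1.16, adjusted p = 0.270).

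**Figure D2:**
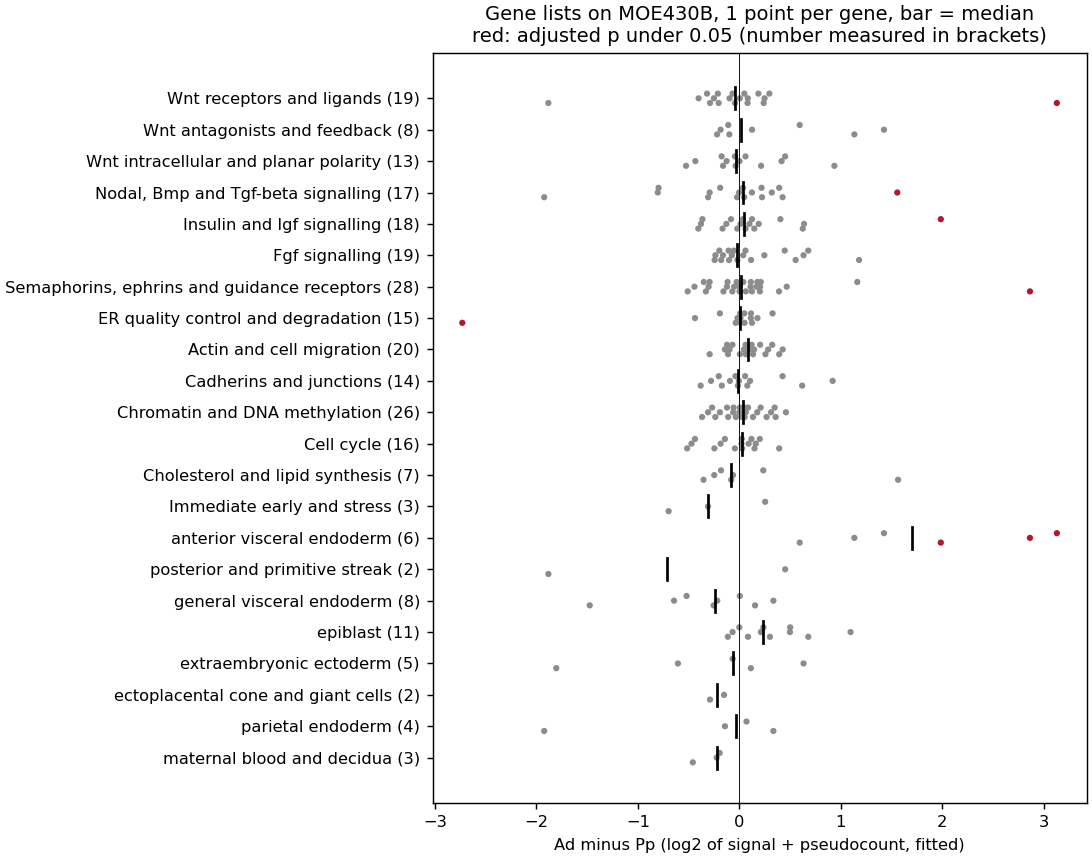
Fitted difference of Ad minus Pp (log2) for each measured gene, grouped by list, with 1 probe set per gene and the list's median as a bar. Red points passed the threshold. The AVE list has its median at 1.70, which its 3 red points, Fzd5, Sema6d and Irs4, picked with results of these data known, help to set. The signalling and housekeeping lists with at least 7 measured genes have medians between -0.08 and 0.08.

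Edem3 was the 1 probe set past the threshold that was lower in Ad. It encodes a mannosidase-like protein that sends misfolded glycoproteins out of the endoplasmic reticulum for degradation. Its signal was 22.3 and 16.1 in Ad, below the filter's signal of 37.2, against 188 and 163 in Pp and 85.2 in the whole embryo. The groups were far apart, with a difference of -2.73 (SE 0.17) and adjusted p = 0.00531 in limma. Because the Ad level was so low, the fitted size depends on the pseudocount. None of the other 14 measured genes of endoplasmic reticulum quality control passed, and the median of all 15 was 0.01.

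Foxq1, a forkhead transcription factor, was bright in Ad at 2219 and 1719, against 594 and 503 in Pp and 681 in the whole embryo. It was higher by 1.74 (SE 0.19), or 3.35-fold, with adjusted p = 0.0481 in limma. Quantile normalization, no pseudocount and no filter each ended the calls of Foxq1, Slc39a2, Akr1c19 and Speer4cos, as they did that of Tgfbr3. With no filter only 2 of the 15 calls were kept, both of probe sets without a gene name. Of 14 measured forkhead genes Foxq1 was the 1 that passed. Lhx1os, a noncoding RNA transcribed opposite the AVE homeobox gene Lhx1, read 371 and 289 in Ad against 60.8 and 69.2 in Pp, and the whole embryo at 67.0 lay between the Pp arrays. Its difference was 2.09 (SE 0.17), with adjusted p = 0.0136. Lhx1 itself was read on MOE430A by 2 probe sets, at 2338 and 2266 in Ad against 757 and 675 in Pp, and at 1044 and 994 against 896 and 713.

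Membrane transport supplied 2 called genes. Kcnj5, a subunit of G-protein-gated inward rectifier potassium channels, read 141 and 133 in Ad, 22.5 and 17.2 in Pp and 17.9 in the whole embryo (2.21, SE 0.16, adjusted p = 0.00730). Outside Ad it lay below the filter's signal, so it was kept only through its Ad signal and no fold is given. The zinc transporter Slc39a2 read 342 and 366 in Ad, 87.2 and 119 in Pp and 118 in the whole embryo (1.62, SE 0.17, adjusted p = 0.0428). Of 32 measured potassium channel genes 10 were positive and 22 negative, and without centring 15 were positive. Of 124 measured solute carriers 45 were positive and 79 negative, with a median of -0.06, and without centring 64 were positive and the median turned to 0.02. Over all measured genes 3289 of 6921 were positive. Leaving out the centring also raised the median of all kept probe sets, from -0.01 to 0.06. The turn of sign is therefore not particular to this list.

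Akr1c19, an aldo-keto reductase, read 398 and 302 in Ad, 77.4 and 101 in Pp and 78.6 in the whole embryo (1.78, SE 0.19, adjusted p = 0.0481). The Akr1c genes form a cluster of close copies, so this probe set may read more than 1 of them. The same holds for Speer4cos, at 155 and 96.1 in Ad against 18.9 and 16.1 in Pp (2.17, SE 0.23, adjusted p = 0.0481), since Speer4 genes exist in many copies. Both Pp arrays of Speer4cos and the whole embryo, at 22.3, lay below the filter's signal of 37.2. Speer4cos was thus kept only through its Ad signal, and its size depends on the pseudocount. Gm9558 read 194 and 236 in Ad, 34.4 and 36.9 in Pp and 133 in the whole embryo (2.21, SE 0.15, adjusted p = 0.00558).

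The strongest separation of all belonged to a probe set without a gene name, 1445495_at, at 2539 and 2312 in Ad, 101 and 75.7 in Pp and 281 in the whole embryo. It was higher in Ad by 4.56 (SE 0.18), or 23.6-fold, with adjusted p = 0.00129 in limma. Another unnamed probe set, 1459989_at, read 1288 and 1072 in Ad and 121 in each Pp array (3.10, SE 0.15, adjusted p = 0.00271). The third, 1460084_at, read 341 and 299 in Ad and 32.9 and 39.7 in Pp (2.75, SE 0.15, adjusted p = 0.00325). The mean Pp signal of the third lay just below the filter's 37.2, so its size depends on the pseudocount. These 3 had the smallest adjusted p-values of the array, and 4102 of the kept probe sets lacked a single gene name.

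**Figure D3:**
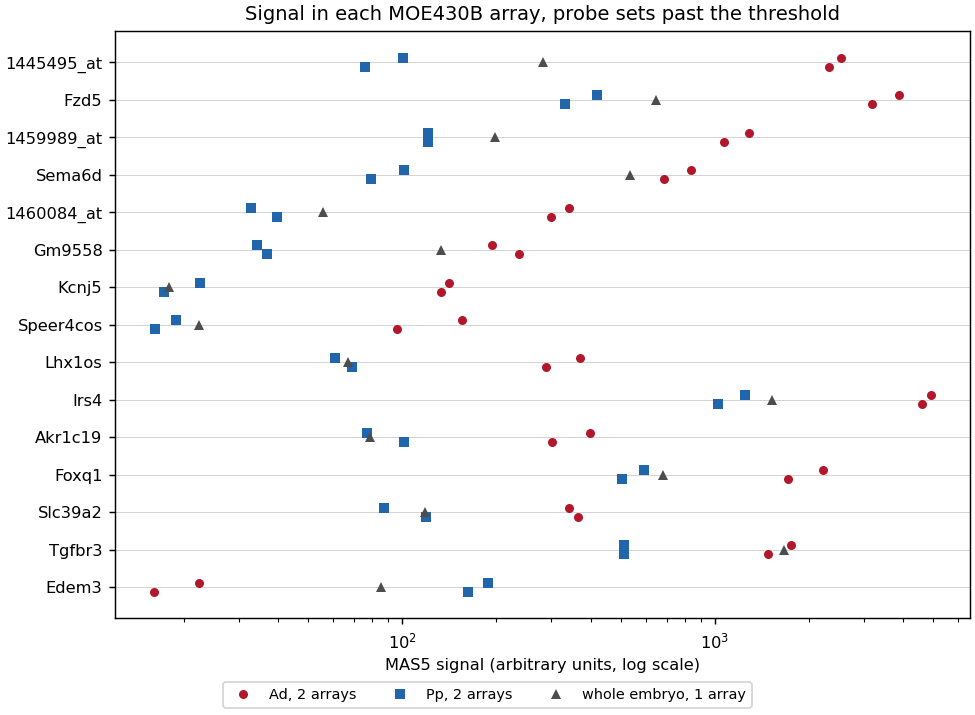
MAS5 signal (log scale) of the 15 probe sets past the threshold in each of the 5 MOE430B arrays. Red circles are the 2 Ad arrays, blue squares the 2 Pp arrays and grey triangles the whole embryo. In 14 probe sets both Ad arrays lie above both Pp arrays, and for Edem3 they lie below. The whole embryo is nearer Pp in 11 of the 14, and nearer Ad for Sema6d, Gm9558 and Tgfbr3.

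A further 14 probe sets were at least 2-fold apart without overlap but did not pass the threshold, 9 higher and 5 lower in Ad. Besides Dact2, those higher included Tox3, an HMG-box protein, at 598 and 553 in Ad and 229 and 180 in Pp (1.38, adjusted p = 0.0743). Jakmip1, a microtubule-binding protein, read 1231 and 1135 against 506 and 393 (1.31, adjusted p = 0.102). Cd55, which protects cells from complement, read 341 and 277 against 112 and 113, and the whole embryo was brighter still at 427 (1.29, adjusted p = 0.0659). The kinase gene Hipk2 was higher in both of its kept MOE430B probe sets by value. The dimmer one read 200 and 179 against 43.1 and 66.4 (1.56, adjusted p = 0.0659), and the brighter one 1122 and 1027 against 419 and 517 (1.11, adjusted p = 0.102). The 2 Hipk2 probe sets kept on MOE430A differed by -0.06 and -0.08. The remaining 4 were Fam107a (1.40, adjusted p = 0.0562), LOC102631979 (1.97, adjusted p = 0.0562), Smim14 (1.76, adjusted p = 0.0659, with Pp below the filter's signal) and the adenylate kinase gene Ak8 (2.03, adjusted p = 0.254). A second kept Fam107a probe set differed by -0.03 (adjusted p = 0.964).

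Those lower in Ad were Fst, Rspo3, Maf, Ddah1 and the unnamed 1433081_at (-1.25, adjusted p = 0.0562), whose Ad signal lay below the filter's. Maf, a leucine zipper transcription factor in the visceral endoderm list, read 146 and 96.5 in Ad, 309 and 353 in Pp and 956 in the whole embryo (-1.47, adjusted p = 0.111). Its other kept probe sets differed by -0.48 (adjusted p = 0.423) and 0.01 (adjusted p = 0.990). Ddah1, an enzyme that breaks down methylated arginine and a member of the extraembryonic ectoderm list, read 471 and 511 in Ad but 957 and 2836 in Pp and 3723 in the whole embryo (-1.80, adjusted p = 0.371). The 2 Pp arrays of Ddah1 stood almost as far apart as Pp stood from Ad. Other kept Ddah1 probe sets differed by -1.51, -1.12, -0.45 and -0.04. The 10 genes with the largest differences downward were taken among those with an unadjusted limma p under 0.05 and no overlap. Among them were also 2 transcription factor genes less than 2-fold apart. Sp8 read 36.9 and 50.9 against 136 and 92.4 (-1.27, adjusted p = 0.241), and Tbx3 read 49.0 and 75.9 against 123 and 169 (-1.19, adjusted p = 0.265).

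No marker of the tissues that both fragments contain passed the test. Of all 6921 measured genes only 12 did, so a count of 0 in lists of 11 and 8 genes tells little. In the epiblast list 11 genes were measured, 0 passed, 8 were positive and the median was 0.24. That median was 0.39 without Ad replicate 3, 0.06 without Ad replicate 4 and 0.14 without Pp replicate 4. Sall1, a zinc finger repressor, had the largest value, at 1286 and 1316 in Ad and 523 and 625 in Pp (1.10, adjusted p = 0.0866). On MOE430A the Sall1 probe set differed by 0.04. The pluripotency gene Utf1 read 375 and 471 against 324 and 350 (0.24), and Trim71 read 1933 and 2156 against 1994 and 1882 (0.00). A second, dimmer Trim71 probe set read 649 and 821 against 1105 and 155 (0.71, adjusted p = 0.785 in limma). Of 8 general visceral endoderm genes 0 passed and the median was -0.24, or -0.13 without Pp replicate 3. Transthyretin (Ttr), an abundant secreted carrier protein of this tissue, read 9204 and 8219 in Ad and 6714 and 8184 in Pp (0.15, adjusted p = 0.761). The endocytic receptor Lrp2 read 680 and 734 against 804 and 759 (-0.22, adjusted p = 0.633). The sulfate transporter gene Slc13a4 read 974 and 1030 against 1375 and 1615 (-0.64, adjusted p = 0.345).

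The list for extraembryonic ectoderm, a tissue that borders the Pp cut, had 5 measured genes, and its summed signal was higher in 1 Pp array than in the other. The sum was 2113 and 2159 in Ad. It was 2194 in the Pp array of replicate 3 and 4858 in that of replicate 4, and the whole embryo reached 5611. Most of the gap between the Pp arrays came from Ddah1, at 957 and 2836. Plet1, a surface marker of that tissue, read 127 and 121 in Ad, 115 and 290 in Pp and 343 in the whole embryo. Ets2, a trophoblast transcription factor, read 147 and 183 in Ad, 81.6 and 243 in Pp and 363 in the whole embryo. The nuclear receptor gene Esrrb read 1122 and 1079 in Ad, 920 and 1298 in Pp and 1136 in the whole embryo. Spry4, an inhibitor of receptor tyrosine kinase signalling, was dimmest in the whole embryo, at 246 and 266 in Ad, 121 and 191 in Pp and 47.4 there. The part of this tissue in the differences was not tested. Pp arrays differed by over 1 log2 unit in 212 probe sets, of which 144 were higher in replicate 3 and 68 in replicate 4, while Ad arrays did so in 42. In 188 of the 212 the whole embryo lay nearer Pp replicate 4. None of the 15 called probe sets was among the 212, and the largest difference between Pp arrays in a called probe set was 0.42. All 15 also passed with either Pp array left out, when 131 probe sets passed without replicate 3 and 61 without replicate 4. With either Ad array left out 0 passed, and the smallest adjusted p was 0.0801 without replicate 3 and 0.0754 without replicate 4; at an unadjusted p under 0.05 there were 664 and 583. The spread of the fragments then comes from the Pp pair alone.

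Genes read on both array types did not always give the same size of difference. Of the 12 called named genes, 7 had a probe set on MOE430A and 5 had one bright enough to be kept there. Fzd5 read 1077 and 911 in Ad and 632 and 573 in Pp on MOE430A, a difference of 0.48 against 3.13 on MOE430B. Foxq1 read 1188 and 996 against 602 and 622, a difference of 0.57 against 1.74. Edem3 (-0.08), Tgfbr3 (-0.05) and Sema6d (-0.09) were near 0 on MOE430A. The pseudocount on MOE430A was 248, so low values are drawn together more than on MOE430B, where it was 10.5. Smim14 differed by 1.24 and 0.73 in its MOE430A probe sets, and Dkk1, at 4258 and 2285 against 1208 and 1308, by 1.10. The 98 probe sets kept on both array types gave the same sign in 77 and a correlation of 0.69 across probe sets. Of these 0 passed the threshold on MOE430B, and their largest difference there was 0.50 in either direction.

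**Figure D4:**
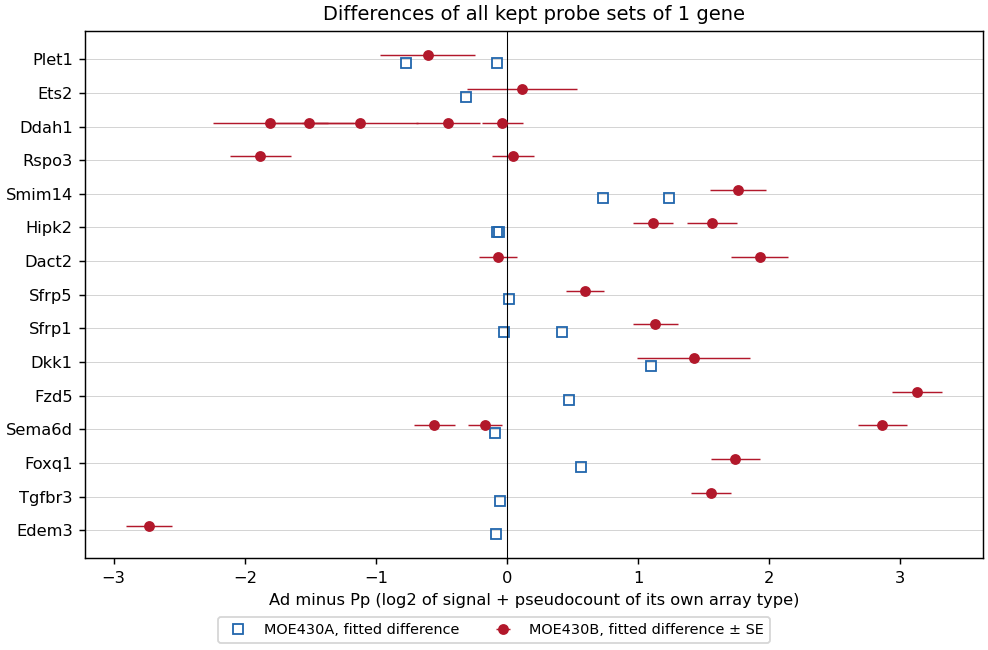
Fitted difference of Ad minus Pp for all kept probe sets of selected genes, on MOE430B (red circles, ± SE) and MOE430A (blue squares, drawn without error). Shown are the called genes with more than 1 kept probe set, and Dkk1, Sfrp1, Sfrp5, Dact2, Hipk2, Smim14, Rspo3, Ddah1, Ets2 and Plet1. The axis is log2 of signal plus the pseudocount of each array type. Sema6d, Dact2 and Rspo3 each have a MOE430B probe set far from 0 and another near it, and Edem3 and Tgfbr3 lie near 0 on MOE430A.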

How the data were processed

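The MOE430B arrays (2 Ad, 2 Pp, 1 whole embryo) were analysed, and those of MOE430A gave side-by-side values. The deposited values are probe set intensity; per the submitters' processing notes the authors used MAS5, with its version, scaling target and any floor not stated in these sources. Array medians on MOE430B were 56.7 to 61.0, and 5.69% to 6.13% of values were exactly 1. The number of arrays limits the precision.

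In R 4.3.3 with limma 3.58.1, 64 control probe sets were left out, the 20th percentile of all values (10.5) was added, and log2 was taken. Probe sets with a mean log2 above the 40th percentile (a signal of 37.2) were kept, 13506 of 22511, and each array was centred on its median. A coefficient for each kind of sample was fitted (lmFit, eBayes, 2 residual degrees of freedom). Tests were two-sided, with Benjamini-Hochberg adjustment over all kept probe sets at 0.05. Every adjusted p is limma's. Differences are on the log2(signal + pseudocount) scale, which understates those of dim genes. The script was tested on simulated data.

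Of the probe sets, 14661 had 1 gene symbol in the platform annotation, 245 several and 7605 none; 14486 matched RefSeq (GRCm38.p6). A gene in a list counts once, by its brightest probe set. Named were probe sets past the threshold, those at least 2-fold apart, Fzd5, Sema6d and Irs4, the 10 genes each way with the largest differences, and list members. Those 10 each way were taken among genes with an unadjusted limma p under 0.05 and no overlap between fragments. Fzd8, which was not kept, and genes shown from MOE430A were added after their values were seen, as was Akr1cl. Members and lists were chosen with earlier results of these data known.

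Alternatives changed the centring, pseudocount, filter, variance trend, whole-embryo array, replicate block and each replicate.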

Additional observations from a re-analysis of the deposited data

How the results depend on the processing

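The alternatives were 10 other settings with all 4 fragment arrays, and 4 that left out 1 array each. Probe sets followed were the 15 past the threshold, the others at least 2-fold apart, the Sema6d sets and the named genes with the largest differences downward. None of them changed direction where it could be fitted. List members were followed only through their list's median and counts, which do shift. Counts of probe sets past the threshold were 21 without centring, 10 with quantile normalization, 16 with cyclic loess, 10 with no pseudocount and 16 without the whole-embryo array. They were 30 with a pseudocount at the 40th percentile, 30 with an intensity trend, 26 with a filter at the 60th percentile (9004 probe sets tested) and 2 with no filter (22511 tested, 1948 at an unadjusted p under 0.05). Of the 15 called probe sets, 10 passed under quantile normalization and 10 with no pseudocount (Tgfbr3, Foxq1, Slc39a2, Akr1c19 and Speer4cos were lost under each), 12 with the stricter filter and 2 with no filter (1445495_at and 1459989_at), and all 15 passed under the other alternatives with all fragments. The cause of these losses was not tested. Leaving out 1 array gave 0 to 131 probe sets past the threshold and 50 to 123 at least 2-fold apart; the latter count then sets 2 arrays against 1. With all fragments it ran from 23 to 39. With the replicate number as a block 29 passed, 23 higher and 6 lower, among them all 15. The labels do not say whether equal replicate numbers belong together. The Ad and Pp deviations correlated at -0.04, which cannot settle it, since paired fragments need not deviate alike. In the epiblast list 1 gene passed with the larger pseudocount, the stricter filter or the trend. Medians of the signalling lists ran from -0.14 to 0.09 with 1 array left out. Low signal limits what can be said of Edem3, Kcnj5, Gm9558, Speer4cos, 1460084_at, Smim14 and 1433081_at, each dimmer than the filter's signal in one fragment.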

Other observations

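Genes with symbols starting Zfp, mostly zinc finger proteins of nuclear function, gave 103 positive and 75 negative differences of 178 measured, with a median of 0.04 and 0 past the threshold (limma), where 47.7% of all kept probe sets were positive. Without centring 126 were positive, with quantile normalization 98 and without Pp replicate 3 92. Leaving out the centring raised the median of all kept probe sets too, to 0.06. Of 6 measured Sox genes 5 were positive, with a median of 0.27 and 0 past the threshold; the median was 0.47 without Pp replicate 3 and 0.19, with 4 positive, without Pp replicate 4. Sox4, a neural and epiblast transcription factor gene, read 2211 and 2164 in Ad and 1462 and 1470 in Pp (0.50, adjusted p = 0.399).

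One signal stood out in a single array and was chosen after its values were seen. Akr1cl, an aldo-keto reductase gene, read 9018 in Pp replicate 4 but 5.80 in Pp replicate 3, 5.74 and 10.6 in Ad and 16.0 in the whole embryo. Its fitted difference of -4.45 was the lowest of all measured genes and had an adjusted p of 0.591 in limma. Golga7b was high in the other Pp array, at 3487 in replicate 3 against 1149 in replicate 4, 882 and 956 in Ad and 892 in the whole embryo (-1.19, adjusted p = 0.474). A second kept Golga7b probe set differed by 0.09. AU015836 read 293 in Pp replicate 4 and 83.9 in replicate 3, with 60.8 and 54.4 in Ad and 252 in the whole embryo (-1.39, adjusted p = 0.432). Igfbp3 read 2071 in the whole embryo and 89.4 to 165 in the fragments.

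Among the 98 probe sets kept on both array types, the difference between the 2 Ad arrays of MOE430A correlated with that of MOE430B at 0.74 and that between the Pp arrays at 0.23, across probe sets. The Vta1 probe set read 2159 and 7564 in the Pp arrays of MOE430A but 1149 and 1334 in those of MOE430B. Its weight in the Pp correlation was not tested. The labels do not say whether the replicates on the array types share RNA.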
